A study of Mus musculus with 18 samples.

Results

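The major histocompatibility complex (MHC) class II genes were described across 5 sorted cell groups from mouse rhabdomyosarcoma tumors and normal neck muscle, measured on 18 expression arrays. The set was given by name and held 7 genes, H2-Aa, H2-Ab1, H2-Eb1, Cd74, Ciita, H2-DMa and H2-DMb1, and a gene was measured where a probe set named it and no other gene. By that rule 6 of the 7 were measured, of 22180 genes measured in all. Where a gene had several such probe sets, one was to be chosen by its highest mean over the 18 arrays, but each of the 6 had a single one, so their values chose nothing further. The probe set for Cd74, which encodes the invariant chain, also named a microRNA gene, so Cd74 has no value here.

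Class II molecules are surface proteins that show peptides from engulfed material to CD4 T cells. An alpha chain (H2-Aa) pairs with a beta chain (H2-Ab1), and H2-Eb1 encodes the beta chain of the other classical class II molecule of the mouse. In the endosome, the H2-DM dimer, made from H2-DMa and H2-DMb1 or its near-identical neighbor H2-DMb2, exchanges the placeholder peptide for an antigen-derived one. Ciita is the coactivator that class II transcription depends on. It does not bind DNA itself but is recruited to promoters whose X and Y boxes hold the RFX and NF-Y complexes. Dendritic cells, B cells and macrophages carry these genes constitutively, and interferon gamma can induce them in other cells, endothelium among them.

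The tumor cells came from mice of genotype aP2-Cre/+;tdTomato/+;SmoM2/+ on a background labelled BJ;SJL;B6.129. In these mice the aP2 (Fabp4) promoter drives Cre, which turns on the red reporter tdTomato and an activated form of the Hedgehog receptor component Smoothened. Tumor cells were sorted as Tom+/Pecam1+, Tom+/Pecam1- and Tom-/Pecam1- (4 arrays each), where Tom is the reporter and Pecam1 is an endothelial surface protein. Repeats 1 to 3 were taken at postnatal day 48 and repeat 4 at postnatal day 38. The muscle cells came from the sternocleidomastoid of mice with aP2-Cre/+ and tdTomato and no SmoM2, on a background labelled B6;SJL, at postnatal day 21, and were sorted as Tom+ and Tom- (3 arrays each). All 18 arrays therefore come from mice with the Cre and the reporter. The tissue, the age, the strain label and SmoM2 change together between tumor and muscle, and their parts in a tumor-muscle difference cannot be told apart. Class II genes differ in sequence between mouse strains, and whether that changed probe signal was not tested. Pecam1 was high in the tumor cells sorted for it and in muscle Tom+ cells: it averaged a log2 intensity of 11.88 ± 0.21 in tumor Tom+/Pecam1+ cells, 7.1 ± 0.23 in Tom+/Pecam1- cells and 7.37 ± 0.38 in Tom-/Pecam1- cells (SD, n = 4 each), and 11.18 ± 0.07 in muscle Tom+ and 8.1 ± 0.28 in muscle Tom- cells (SD, n = 3 each). Across the 18 arrays the probe-set values spanned 1.19 to 13.4, array medians were 5.41 to 5.44 in tumor and 5.04 to 5.1 in muscle, and replicates of a group correlated at 0.973 to 0.99. For every probe set, the mean of the 3 tumor groups was equal in all 4 repeats to within 7.67e-05, so the 3 tumor values of a repeat are coupled. Differences within a repeat are unaffected by that, but variation shared by the arrays of a repeat no longer shows in the tumor spread, and p-values from tumor arrays tend to be too small.

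The measured members lie on mouse chromosomes 16 and 17 (RefSeq, GRCm38.p6). H2-DMa (chr17:34119693-34139101), H2-DMb1 (chr17:34153191-34160229), H2-Ab1 (chr17:34263227-34269418), H2-Aa (chr17:34282744-34287823) and H2-Eb1 (chr17:34305867-34316674) sit within the class II region, and Ciita lies apart (chr16:10480014-10531064). Because the members share a regulator, the 130 bases before the annotated start are printed for 3 members whose windows held a match to the X or Y box. Capitals mark the X core AACNGATG and the Y core TGATTGG. These letter forms were chosen after the promoters had been read, and were searched on both strands over 250 upstream bases. They do not overlap each other in these windows.

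H2-Eb1, chr17:34305737-34305866, plus strand: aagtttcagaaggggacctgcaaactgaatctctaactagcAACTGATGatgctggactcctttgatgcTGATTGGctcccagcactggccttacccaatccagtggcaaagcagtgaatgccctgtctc

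H2-DMb1, chr17:34153061-34153190, plus strand: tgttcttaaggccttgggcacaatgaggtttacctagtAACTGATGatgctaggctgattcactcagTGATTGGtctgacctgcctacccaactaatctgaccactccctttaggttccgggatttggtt

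H2-Aa, chr17:34287824-34287953, minus strand: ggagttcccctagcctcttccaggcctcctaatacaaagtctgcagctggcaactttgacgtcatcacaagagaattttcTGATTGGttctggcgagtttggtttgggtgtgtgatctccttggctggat

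In H2-Eb1 the X core began at position -89 and the Y core at position -61, counted from the annotated start. H2-DMb1 held the same pair at nearly the same places, at -92 and -63. H2-Aa held the Y core alone, at -50. Among all 32851 promoter windows of the table, 1.98% held the X core, 7.23% held the Y core, and 7 (0.0213%) held an X core followed on the same strand by a Y core that started at most 40 bases further on. Of those 7 windows, H2-Eb1 and H2-DMb1 are members, and H2-DMb2 and H2-Eb2 are class II genes outside the set. BC051142, G3bp2 and H2-M10.4 made up the rest. Both H2-DMa windows held neither core in this letter form. These windows (chr17:34122582-34122881 and chr17:34125268-34125567) lie inside the H2-DMa span given above, so the bases before the start of that span were not searched. H2-Ab1 and Ciita were not searched. A match is a description of letters, not of a bound site.

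The classical chains were read first, and values are log2 intensities as deposited, in the order of repeats 1 to 4 for tumor and 1 to 3 for muscle. H2-Aa had 5.59, 5.43, 4.75 and 6.73 in tumor Tom+/Pecam1+ cells, 8.4, 8.65, 8.9 and 7.37 in Tom+/Pecam1- cells, and 10.23, 10.15, 10.58 and 10.12 in Tom-/Pecam1- cells. The 3 tumor groups formed 3 separate levels with no overlap, lowest in the Tom+/Pecam1+ cells and highest in the Tom-/Pecam1- cells. In muscle, H2-Aa had 5.48, 5.65 and 6.15 in Tom+ cells and 6.77, 6.49 and 6.52 in Tom- cells. The Tom- arrays were all above the Tom+ arrays, by a smaller step than in tumor.

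H2-Ab1, the partner chain of H2-Aa, had 6.87, 5.86, 5.69 and 7.0 in tumor Tom+/Pecam1+ cells, 9.28, 9.94, 9.77 and 8.53 in Tom+/Pecam1- cells, and 10.65, 11.01, 11.34 and 11.27 in Tom-/Pecam1- cells. H2-Ab1 in muscle had 6.91, 7.07 and 7.72 in Tom+ cells and 8.36, 7.87 and 8.26 in Tom- cells. The order of groups was that of H2-Aa in each tissue, again without overlap within a tissue. H2-Eb1, the other classical beta chain, had 5.93, 5.5, 5.67 and 7.51 in tumor Tom+/Pecam1+ cells, 8.5, 8.94, 8.56 and 8.1 in Tom+/Pecam1- cells, and 10.61, 10.6, 10.81 and 9.43 in Tom-/Pecam1- cells. Its muscle values were 5.81, 5.66 and 6.03 in Tom+ cells and 6.81, 6.11 and 6.52 in Tom- cells. Repeat 4 of the tumors, the younger one, was the highest of the Tom+/Pecam1+ arrays and the lowest of the other 2 tumor groups for H2-Eb1, so the 3 groups lay closest together there.

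The H2-DM genes and Ciita followed the chains only in part. H2-DMa had 6.02, 6.2, 6.64 and 7.48 in tumor Tom+/Pecam1+ cells, 7.15, 7.62, 7.28 and 7.44 in Tom+/Pecam1- cells, and 9.99, 9.34, 9.23 and 8.24 in Tom-/Pecam1- cells. The Tom-/Pecam1- arrays stood above the rest, while the Tom+/Pecam1+ and Tom+/Pecam1- arrays overlapped through repeat 4. H2-DMa muscle values were 5.29, 5.22 and 5.69 in Tom+ cells and 5.44, 5.61 and 5.6 in Tom- cells, with the groups overlapping. H2-DMb1 had 4.11, 3.86, 4.32 and 4.7 in tumor Tom+/Pecam1+ cells, 4.18, 4.59, 4.77 and 5.14 in Tom+/Pecam1- cells, and 6.33, 6.18, 5.53 and 4.79 in Tom-/Pecam1- cells. In muscle H2-DMb1 had 3.53, 3.48 and 3.29 in Tom+ cells and 3.25, 3.09 and 3.59 in Tom- cells. H2-DMb1 was dim throughout: 4 of its 18 values exceeded the 40th percentile of their own array, 3 of them in tumor Tom-/Pecam1- cells and 1 in Tom+/Pecam1- cells, so it entered the tests through the group where it was high. Signal of H2-DMb1 may include its near-identical neighbor H2-DMb2.

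Ciita, the coactivator, had 5.69, 6.34, 6.3 and 6.5 in tumor Tom+/Pecam1+ cells, 5.96, 6.01, 6.2 and 6.55 in Tom+/Pecam1- cells, and 8.33, 7.63, 7.47 and 6.93 in Tom-/Pecam1- cells. Its muscle values were 5.86, 5.54 and 5.78 in Tom+ cells and 5.8, 6.03 and 5.57 in Tom- cells. The tumor Tom-/Pecam1- arrays were above all other arrays. After centring on the array median, described further on, the remaining 4 groups overlapped. Within its own array, Ciita ranked at the 54.6 to 66.6 percentile of probe sets in tumor Tom+/Pecam1+ cells, 58.1 to 66.6 in Tom+/Pecam1- cells and 72.5 to 88.6 in Tom-/Pecam1- cells, and at 57.6 to 62.5 in muscle Tom+ and 58.3 to 65.2 in muscle Tom- cells. H2-Ab1 ranked at 54.6 to 73.6 in tumor Tom+/Pecam1+ cells, 89.9 to 97.1 in Tom+/Pecam1- cells, 98.6 to 99.3 in Tom-/Pecam1- cells, 76.8 to 85.2 in muscle Tom+ cells and 87.8 to 91.4 in muscle Tom- cells.

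**Figure D1:**
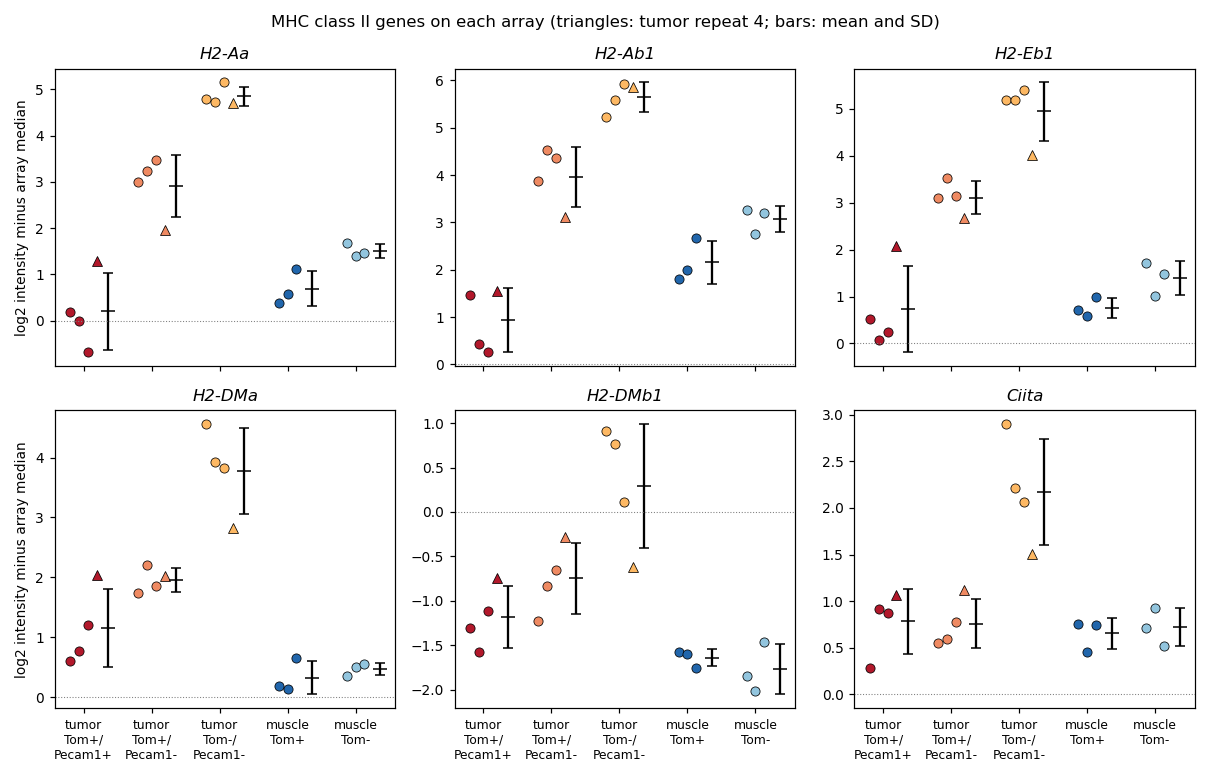
Log2 intensity minus the array median (y) of the 6 measured class II genes in each sorted group (x, tumor groups left of muscle groups); points are arrays, triangles are tumor repeat 4, and bars are the mean ± SD (n = 4 tumor, n = 3 muscle). The tumor Tom-/Pecam1- group has the highest mean in every panel, at 4.85 for H2-Aa and 5.65 for H2-Ab1, and H2-Aa, H2-Ab1 and H2-Eb1 step down through Tom+/Pecam1- to Tom+/Pecam1+ cells while Ciita does not.

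To set tumor and muscle on one scale, each array was centred on its median. Centred H2-Aa then averaged 0.2 ± 0.82 in tumor Tom+/Pecam1+ cells, 2.92 ± 0.67 in Tom+/Pecam1- cells and 4.85 ± 0.21 in Tom-/Pecam1- cells (SD, n = 4 each), and 0.68 ± 0.38 in muscle Tom+ and 1.51 ± 0.15 in muscle Tom- cells (SD, n = 3 each). Its 2 lowest groups, tumor Tom+/Pecam1+ and muscle Tom+, overlapped, and the other neighbors in the order did not. For H2-Ab1, tumor Tom+/Pecam1- cells and muscle Tom- cells were the neighbors that overlapped, and tumor Tom+/Pecam1+ cells were lowest at 0.93 ± 0.68. H2-DMb1 had overlapping neighbors along its whole order.

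Each difference below was tested in one limma fit over all 18 arrays, with Benjamini-Hochberg adjustment over 16011 genes and a threshold of 0.05. The members were picked with earlier results of these arrays known, so the share of all genes called is printed beside each count from this fit.

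In tumor, Pecam1-negative cells with the reporter were set against those without it. H2-Aa, H2-Ab1, H2-Eb1, Ciita and H2-DMa were lower in Tom+/Pecam1- than in Tom-/Pecam1- cells, in a comparison where 12% of all genes were called lower and 25.4% were called in either direction. These 5 also passed with the repeat block, as did 16.8% of all genes. H2-DMb1 is given apart in each comparison that includes tumor Tom-/Pecam1- cells, since it was tested only because it was high there. The log2 difference was -1.94 ± 0.34 for H2-Aa (SE, 3.83-fold lower, limma adjusted p = 0.000558). It was -1.69 ± 0.32 for H2-Ab1 (SE, 3.22-fold lower, adjusted p = 0.000988) and -1.84 ± 0.37 for H2-Eb1 (SE, 3.57-fold lower, adjusted p = 0.00141). Ciita fell by 1.41 on the log2 scale (2.66-fold lower, adjusted p = 0.000359) and H2-DMa by 1.83 (3.55-fold lower, adjusted p = 0.000402). The difference for H2-DMb1 was -1.04 ± 0.28 (SE, 2.05-fold lower, adjusted p = 0.0109), and with the repeat number as a block its adjusted p was 0.0514. Groups did not overlap for the 5 members other than H2-DMb1, against 27.8% of all genes.

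The size of that difference varied by repeat. Ciita differed by -2.37, -1.62, -1.27 and -0.38 in repeats 1 to 4, and H2-DMa by -2.84, -1.72, -1.95 and -0.8. H2-Eb1 differed by -2.11, -1.67, -2.24 and -1.33. For these 3 genes the younger repeat 4 gave the smallest difference. H2-DMb1 gave -2.15, -1.59, -0.76 and 0.35, so its sign turned in repeat 4. H2-Aa ran the other way, at -1.83, -1.49, -1.68 and -2.75, with the largest difference in repeat 4, and so did H2-Ab1, at -1.38, -1.07, -1.57 and -2.74. In Tom-/Pecam1- cells repeat 4 also had the lowest mean of the pan-leukocyte markers, at 8.58 against 9.43 to 9.79 in repeats 1 to 3, and of the macrophage markers, at 8.75 against 9.25 to 9.5. Dendritic cell markers averaged 6.21 there against 7.16 to 7.64, T cell markers 5.34 against 6.34 to 7.32 and B cell markers 4.62 against 5.17 to 6.12, and the part of these cells in the smaller differences was not tested. Because the mean of the 3 tumor groups is equal in all repeats, the level of 1 group also reflects the other tumor groups of its repeat. With 1 array per group at day 38, age cannot be told apart from that repeat.

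Markers of blood cells moved with the class II genes. All 8 pan-leukocyte markers, Ptprc (CD45) among them, were lower in Tom+/Pecam1- than in Tom-/Pecam1- cells, with a median of -2.01. Of 13 macrophage markers 12 were lower, led by the lipopolysaccharide coreceptor Cd14 (-2.07, limma adjusted p = 2.55e-05) and the integrin chain Itgam (-2.2, adjusted p = 8.19e-05). Among 12 tested dendritic cell markers 7 were lower and 1, Fscn1 (0.69, adjusted p = 0.00222), was higher. The lower ones included Irf4 (-2.09, adjusted p = 0.000172) and Xcr1 (-1.64, adjusted p = 0.000313). Xcr1 is a chemokine receptor of cross-presenting dendritic cells in mouse. All 6 tested B cell markers (4 with the repeat block) and 4 of 5 T cell markers were lower too. The mean deposited level of the 8 pan-leukocyte genes was 7.13 to 7.51 in Tom+/Pecam1- arrays and 8.58 to 9.79 in Tom-/Pecam1- arrays, and that of the macrophage genes was 7.79 to 8.16 in Tom+/Pecam1- arrays and 8.75 to 9.5 in Tom-/Pecam1- arrays. Ptprc averaged 7.6 ± 0.26 in Tom+/Pecam1- cells and 9.96 ± 0.57 in Tom-/Pecam1- cells (SD, n = 4 each). Muscle precursor markers were higher in Tom+/Pecam1- than in Tom-/Pecam1- cells for 4 of 4, with a median of 1.59. Of 4 fibroblast markers none passed in either direction. The part of any of these cells in the class II difference was not tested. In sorted bulk samples, fewer cells of a type and less RNA per cell cannot be told apart.

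**Figure D2:**
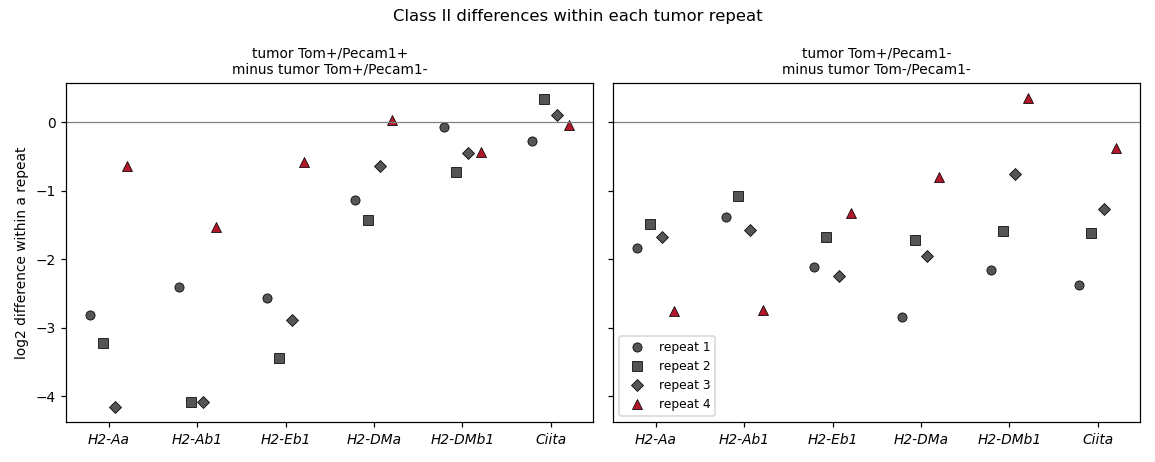
Log2 differences (y) of the 6 measured members (x) within each tumor repeat, with repeats 1 to 4 as marker shapes. Tom+/Pecam1+ minus Tom+/Pecam1- cells are on the left and Tom+/Pecam1- minus Tom-/Pecam1- cells on the right. On the left H2-Aa, H2-Ab1 and H2-Eb1 are nearest to 0 in repeat 4, at -0.64, -1.53 and -0.58, and on the right H2-DMb1 crosses 0 there, at 0.35.

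Endothelial tumor cells with the reporter were then set against their Pecam1-negative counterparts. The 3 classical chains and H2-DMa were lower in the Tom+/Pecam1+ cells, and Ciita did not pass. H2-Ab1 differed by -3.02 ± 0.32 between Tom+/Pecam1+ and Tom+/Pecam1- cells (SE, 8.13-fold lower, limma adjusted p = 5.07e-07). The difference was -2.71 ± 0.34 for H2-Aa (SE, 6.53-fold lower, adjusted p = 4.08e-06) and -2.37 ± 0.37 for H2-Eb1 (SE, 5.17-fold lower, adjusted p = 4.27e-05). Ciita gave 0.03 ± 0.24 (SE, adjusted p = 0.927). H2-DMa stood just past the threshold at -0.79 (adjusted p = 0.0475) and lost it with the repeat block (adjusted p = 0.114) and on leaving out any but 1 of the 8 arrays compared (adjusted p = 0.055 to 0.15 in the 7 fits), and H2-DMb1 gave -0.42 (adjusted p = 0.236). Thus 4 of 6 members were called lower, with 23.6% of all genes called lower and 44.6% called either way (36.3% with the repeat block, under which 3 members passed), and 3 did not overlap between the groups, against 42.6% of all genes.

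Repeat 4 stood apart in this comparison as well. H2-Aa differed by -2.81, -3.22, -4.15 and -0.64 in repeats 1 to 4, H2-Eb1 by -2.56, -3.44, -2.89 and -0.58, and H2-Ab1 by -2.41, -4.08, -4.08 and -1.53. All 4 repeats had the same sign for these 3 genes, with the smallest difference in repeat 4. In that repeat the mean of the pan-leukocyte markers in Tom+/Pecam1+ cells was 7.03, against 5.76 to 5.96 in repeats 1 to 3, and that of the macrophage markers was 6.68, against 5.8 to 5.89. Muscle precursor markers were higher in that array too, at 6.6 against 5.55 to 5.75, and blood endothelial markers were lower, at 10.29 against 10.7 to 10.97. Through the equal repeat means, these levels are coupled to those of Tom-/Pecam1- cells in repeat 4 given above, so they are not separate observations. The part of any of these cells in the class II values of repeat 4 was not tested.

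Of the 13 macrophage markers 12 were lower in Tom+/Pecam1+ than in Tom+/Pecam1- cells, led by lysozyme Lyz2 (-3.66, limma adjusted p = 1.31e-10) and the complement chain C1qb (-3.19, adjusted p = 8.46e-09), with a list median of -1.86. Pan-leukocyte markers were lower for 4 of 8, among them Ptprc (-2.85, adjusted p = 1.2e-06), and higher for 1, the actin-bundling Lcp1 (0.5, adjusted p = 0.0473, and 0.106 with the repeat block). No B or T cell marker passed in either direction. Of 12 tested dendritic cell markers only 1, Zbtb46, was called, and it was higher (1.62, adjusted p = 5.6e-08). The median of that list was 0.04, and 21% of all genes were called higher. Blood endothelial markers were higher for 8 of 8.

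Between the extremes of the tumor, Tom+/Pecam1+ cells were lower than Tom-/Pecam1- cells for the 5 members other than H2-DMb1, with 21.2% of all genes called lower and 41.7% called either way. None of these 5 overlapped between the groups, against 37.6% of all genes. H2-Ab1 differed by -4.71 ± 0.32 (SE, 26.2-fold lower, limma adjusted p = 1.93e-09), and H2-Aa and H2-Eb1 were 25-fold and 18.5-fold lower (adjusted p = 5.43e-09 and 4.9e-08). H2-DMa was 6.13-fold lower (adjusted p = 2.23e-06) and Ciita 2.6-fold (adjusted p = 0.000129). H2-DMb1, above the filter in none of the Tom+/Pecam1+ arrays, was 2.75-fold lower (adjusted p = 0.000375). This comparison shares its arrays with both before it.

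**Figure D3:**
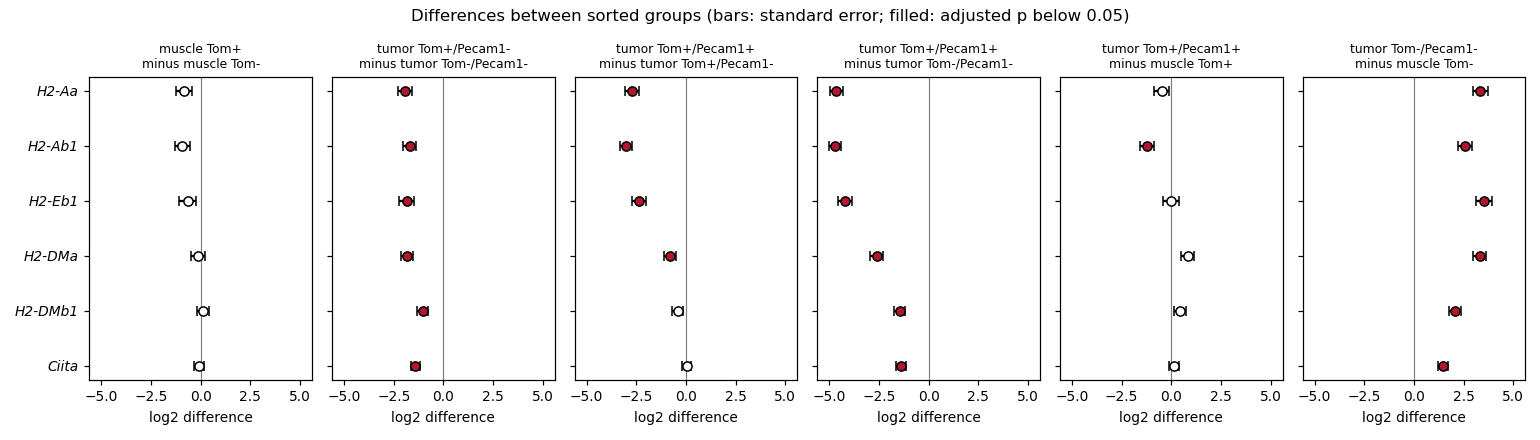
Log2 difference (x) of each of the 6 measured members in 6 comparisons between sorted groups, with bars of 1 SE; filled points have a limma adjusted p under 0.05. In the tumor comparisons the called members lie left of 0, down to -4.71 for H2-Ab1, and in tumor Tom-/Pecam1- minus muscle Tom- cells all 6 lie right of 0, up to 3.54 for H2-Eb1.

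In normal muscle the same reporter split gave no called member, with 39.7% of all genes called in either direction; at an unadjusted p under 0.05 limma had 2 members, H2-Aa and H2-Ab1. H2-Ab1 differed by -0.93 ± 0.37 between Tom+ and Tom- cells (SE, limma adjusted p = 0.0555), with -1.45, -0.8 and -0.54 in the 3 repeats. H2-Aa gave -0.83 ± 0.39 (SE, adjusted p = 0.106) and H2-Eb1 -0.65 ± 0.42 (SE, adjusted p = 0.25), each lower in 3 of 3 repeats. These 3 chains did not overlap between the groups, as was so for 48.6% of all genes. Ciita gave -0.08 (adjusted p = 0.858), H2-DMa -0.15 (adjusted p = 0.783) and H2-DMb1 0.12 (adjusted p = 0.808). In a fit restricted to the muscle arrays these 3 chains passed, at an adjusted p of 0.00745 for H2-Aa, 0.0117 for H2-Ab1 and 0.0269 for H2-Eb1 by limma. The share of all genes called in that restricted fit is not given here, so these 3 calls cannot be set beside it. H2-Ab1 also passed without muscle Tom+ replicate 3 (-1.17, adjusted p = 0.0334).

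The muscle split also separates endothelial from other cells, since blood endothelial markers were higher in Tom+ cells for 8 of 8. Pan-leukocyte markers were lower for 6 of 8 and macrophage markers for 7 of 13, with Cd163 (-1.09, limma adjusted p = 3.95e-05) and Lyz2 (-1.33, adjusted p = 0.000193) first by p-value. With the repeat block these counts were 5 and 6. T cell markers were lower for 3 of 5 (2 with the repeat block) and B cell markers for 1 of 6, with none higher. Of 12 tested dendritic cell markers 2 were higher and none lower, with a list median of -0.08. Of all genes 19.1% were called higher, so these markers as a list did not shift.

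Whether the reporter contrast of Pecam1-negative tumor cells differed from that of muscle was tested as a difference of differences. It was lower by a further 1.68 for H2-DMa (difference -1.68 ± 0.47 SE, limma adjusted p = 0.00934), -1.34 ± 0.36 for Ciita (SE, adjusted p = 0.00693) and -1.16 ± 0.43 for H2-DMb1 (SE, adjusted p = 0.0391, and 0.106 with the repeat block). The call for H2-DMb1 was lost on leaving out any of 9 of the 14 arrays compared (adjusted p = 0.0504 to 0.0889), and H2-Eb1 passed without tumor Tom-/Pecam1- replicate 4 (adjusted p = 0.0276). H2-Aa gave -1.1 (adjusted p = 0.106), H2-Ab1 -0.76 (adjusted p = 0.24) and H2-Eb1 -1.19 (adjusted p = 0.105). Apart from H2-DMb1, H2-DMa and Ciita passed, both lower, and the 3 classical chains did not. Of all genes 18.5% were called lower and 39.5% either way, so the share of members was near that of all genes. With the repeat block 31% of all genes passed, and H2-DMa and Ciita were still among them. Without muscle repeats 1 and 2, which leaves 1 array in each muscle group, none passed. Muscle Tom+ cells were not sorted by Pecam1 and were rich in endothelial transcripts, so the muscle contrast sets other cell types against each other than the tumor contrast does.

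Cells without the reporter were then compared between tissues on centred values. Tumor Tom-/Pecam1- cells were higher than muscle Tom- cells for the 5 members other than H2-DMb1, with 23.8% of all genes called higher and 48.7% called either way. None of these 5 overlapped, as for 48.9% of all genes. H2-Eb1 differed by 3.54 ± 0.4 (SE, 11.7-fold higher, limma adjusted p = 1.97e-06) and H2-Aa by 3.34 ± 0.37 (SE, 10.1-fold higher, adjusted p = 1.8e-06). H2-DMa was 9.93-fold higher (adjusted p = 6.27e-07), H2-Ab1 5.93-fold (adjusted p = 1.64e-05) and Ciita 2.73-fold (adjusted p = 0.000159). H2-DMb1, above the filter in none of the muscle arrays, was 4.16-fold higher (adjusted p = 3.09e-05). All 8 pan-leukocyte and 12 of 13 macrophage markers were higher too, with medians of 1.79 and 2.33, and 6 of 12 dendritic cell markers were higher. Of 6 B cell markers 1, Cd22, was higher (0.77, adjusted p = 0.00698), and of 5 T cell markers none passed in either direction.

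The groups rich in endothelial transcripts were compared last. Between tumor Tom+/Pecam1+ and muscle Tom+ cells 1 of 6 members was called, H2-Ab1, at -1.23 ± 0.35 (SE, 2.34-fold lower, limma adjusted p = 0.0124), with 18.5% of all genes called lower and 34.2% called either way. It was also the only member whose groups did not overlap, against 37.2% of all genes. H2-Aa gave -0.49 (adjusted p = 0.33), H2-Eb1 -0.03 (adjusted p = 0.96), Ciita 0.13 (adjusted p = 0.724), H2-DMa 0.83 (adjusted p = 0.0633) and H2-DMb1 0.46 (adjusted p = 0.253). The call for H2-Ab1 was lost without muscle Tom+ replicate 3 (limma adjusted p = 0.0739). H2-DMa passed without tumor Tom+/Pecam1+ replicate 1 (adjusted p = 0.0345), and H2-Aa passed without replicate 4 of that group, at -0.85 (adjusted p = 0.0468). On deposited values, where tumor arrays have higher medians, H2-DMa (1.18, adjusted p = 0.00713) and H2-DMb1 (0.81, adjusted p = 0.0314) were called higher. Of the 8 pan-leukocyte markers 1, Lcp1, was higher (0.66, adjusted p = 0.0239, and 0.0533 with the repeat block), and of the macrophage markers 1, Cd14, was higher (2.05, adjusted p = 3.04e-05) and 3 were lower.

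Averaged over the 6 members, the centred class II level was 0.1 to 1.22 in tumor Tom+/Pecam1+ arrays, 1.77 to 2.21 in Tom+/Pecam1- arrays and 3.05 to 3.93 in Tom-/Pecam1- arrays, and 0.36 to 0.73 in muscle Tom+ and 0.76 to 0.98 in muscle Tom- arrays. The centred pan-leukocyte level was 1.72 to 2.09 in tumor Tom+/Pecam1- arrays and 1.87 to 2.12 in muscle Tom- arrays, which overlap, while the class II ranges of these 2 groups did not. Taken singly, H2-Ab1 and Ciita did overlap between these groups. This pair of groups was not tested, and neither was the part of leukocytes in it. The macrophage level was 2.36 to 2.74 in tumor Tom+/Pecam1- arrays and 1.55 to 1.71 in muscle Tom- arrays. Class I presentation genes, by contrast, had a centred level of 3.56 to 3.7 in tumor Tom+/Pecam1+ arrays, 2.73 to 3.02 in Tom+/Pecam1- arrays, 3.15 to 3.6 in Tom-/Pecam1- arrays, 3.68 to 3.77 in muscle Tom+ arrays and 2.69 to 2.8 in muscle Tom- arrays.

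**Figure D4:**
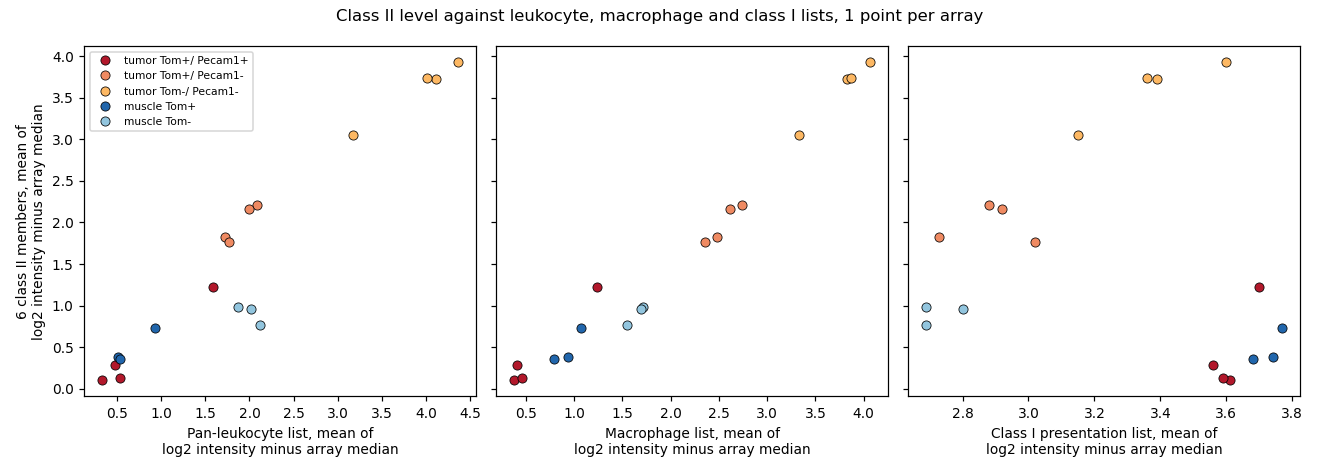
Mean centred log2 intensity of the 6 class II members (y) against that of pan-leukocyte markers, macrophage markers and class I presentation genes (x, one panel each); each point is one of the 18 arrays and colors are the sorted groups. At a pan-leukocyte level near 2 the muscle Tom- arrays lie lower in class II, at 0.76 to 0.98, than the tumor Tom+/Pecam1- arrays, at 1.77 to 2.21. Their macrophage levels differ as well, at 1.55 to 1.71 and 2.36 to 2.74, and this pair of groups was not tested.

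The other genes of the pathway were counted by function, and each count is set beside the share of all genes called in either direction in that comparison. That share was 25.4% for tumor Tom+/Pecam1- against Tom-/Pecam1- cells and 44.6% for Tom+/Pecam1+ against Tom+/Pecam1- cells. It was 39.7% for muscle Tom+ against Tom- cells, 48.7% for tumor Tom-/Pecam1- against muscle Tom- cells and 34.2% for tumor Tom+/Pecam1+ against muscle Tom+ cells. Of 19 class II accessory genes, which process antigen or regulate class II, 11 were lower and 1, the NF-Y subunit Nfyc, higher in tumor Tom+/Pecam1- than in Tom-/Pecam1- cells, with a median of -0.47. The lower ones were led by the endosomal proteases Lgmn (-0.91, limma adjusted p = 2.48e-05) and Ctsh (-1.44, adjusted p = 3.35e-05), the thiol reductase Ifi30 (-2.05, adjusted p = 7.42e-05) and H2-Oa, a chain of the H2-DM inhibitor H2-O (-1.99, adjusted p = 0.000121). H2-DMb2, added here after its value was seen because it may share signal with H2-DMb1, was -3.4 (adjusted p = 0.000247). Nfyc, the only one higher, was 0.35 (adjusted p = 0.023, and 0.0973 with the repeat block). With that block 9 accessory genes were lower and none higher.

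In tumor Tom+/Pecam1+ against Tom+/Pecam1- cells, 6 accessory genes were lower and 3 higher of 19, a share near the 44.6% of all genes. Cathepsin S (Ctss), the protease that trims the invariant chain in most antigen-presenting cells, had the smallest adjusted p (-3.25, limma adjusted p = 3.27e-09), followed by Ifi30 (-1.37, adjusted p = 0.000729). The NF-Y subunit Nfya (0.34, adjusted p = 0.00098) and H2-Oa (1.29, adjusted p = 0.00157) were higher. Between tissues, 11 accessory genes were higher and 1 lower in tumor Tom-/Pecam1- than in muscle Tom- cells, led by Lgmn (2.14, adjusted p = 1.24e-09) and Ctss (2.6, adjusted p = 4.52e-07). In muscle Tom+ against Tom- cells 4 were higher and 4 lower of 19, near the 39.7% of all genes, with the RFX subunit Rfxap higher (0.9, adjusted p = 3.73e-05) and Ifi30 (-1.7, adjusted p = 0.000423) and Ctss (-1.19, adjusted p = 0.00169) lower. Tumor Tom+/Pecam1+ cells had 2 higher and 5 lower accessory genes of 19 than muscle Tom+ cells, near the 34.2% of all genes, with Lgmn higher (1.11, adjusted p = 3.11e-06).

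Costimulatory genes give T cells the accompanying signal for activation or restraint. Against Tom+/Pecam1- cells, tumor Tom+/Pecam1+ cells had 3 of 8 higher and 4 lower. The checkpoint ligand Cd274 (PD-L1; 1.86, limma adjusted p = 8.15e-08) and the adhesion molecule Icam1 (2.22, adjusted p = 1.07e-07) were higher. The CD28 ligand Cd86 (-1.93, adjusted p = 2.01e-06) and Cd83 (-1.28, adjusted p = 0.000295) were lower. In muscle Tom+ against Tom- cells, Cd274 (2.27, adjusted p = 5.45e-08), Icam1 (1.99, adjusted p = 3.05e-06) and Cd40 (0.97, adjusted p = 0.00107) were higher and Cd86 was lower (-0.74, adjusted p = 0.0347), making 3 higher and 1 lower of 8. With the repeat block the call for Cd86 was lost (adjusted p = 0.0861). In tumor Tom+/Pecam1- against Tom-/Pecam1- cells 7 of 8 were lower and none higher (5 lower with the repeat block), with Cd86 at -2.08 (adjusted p = 9.7e-06). Tumor Tom-/Pecam1- cells exceeded muscle Tom- cells for 7 of 8, with Cd86 15-fold higher (adjusted p = 5.05e-09).

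Class I presentation genes, which load peptides for CD8 T cells, were counted in the same comparisons. Of 13 measured, 10 were higher and 3 lower in tumor Tom+/Pecam1+ than in Tom+/Pecam1- cells, the comparison in which 4 class II members were lower. The peptidase Erap1 (1.42, limma adjusted p = 8.24e-08), the transporter Tap2 (0.98, adjusted p = 4.71e-07), the heavy chain H2-K1 (1.28, adjusted p = 9.96e-07) and the immunoproteasome subunit Psmb8 (1.44, adjusted p = 1.18e-06) were higher. In muscle Tom+ against Tom- cells 10 were higher and 1, Canx, lower (-0.24, adjusted p = 0.0318, and 0.123 with the repeat block), led by Tapbp, which holds the class I chain at the transporter (1.2, adjusted p = 3.15e-08). In tumor Tom+/Pecam1- against Tom-/Pecam1- cells 7 of 13 were lower and none higher (5 lower with the repeat block), with H2-K1 at -1.09 (adjusted p = 4.65e-05) and a list median of -0.34. H2-K1 belongs to a family of closely related heavy chains, and its probe signal may include them.

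Interferon gamma pathway genes, 11 of 13 measured, were lower for 7 and higher for none (5 lower with the repeat block) in tumor Tom+/Pecam1- against Tom-/Pecam1- cells, led by the receptor chain Ifngr1 (-0.73, limma adjusted p = 0.00021). In tumor Tom+/Pecam1+ against Tom+/Pecam1- cells 5 were higher and 1, the receptor chain Ifngr2, lower (-0.53, adjusted p = 0.00313), with Irf2 (0.76, adjusted p = 9.02e-06) and Ifngr1 (0.7, adjusted p = 7.81e-05) first among the higher ones. In muscle Tom+ against Tom- cells 6 were higher and none lower, and Cxcl9, a chemokine induced by interferon gamma, was higher by 2.95 (adjusted p = 8.44e-08). Tumor Tom-/Pecam1- cells exceeded muscle Tom- cells for 8 of 11, with Cxcl9 higher by 2.73 (adjusted p = 1.94e-07).

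Over the 18 arrays, each member was correlated with the mean of the other members. Pearson's r was 0.972 for H2-Eb1, 0.949 for H2-DMa, 0.926 for H2-Aa, 0.873 for H2-DMb1, 0.831 for H2-Ab1 and 0.811 for Ciita. These are descriptions over arrays that share 5 groups and, in tumor, the coupling of a repeat. The genes most like the mean of the members were Cd83 (0.994), Pik3ap1 (0.991), Aoah (0.99), Siglece (0.99), Nlrp3, Lilra5, Cd300ld and Myo1f (0.987 each). Cd83 is a surface protein of mature dendritic cells, Pik3ap1 an adaptor of immune receptor signaling, Aoah an enzyme that inactivates lipopolysaccharide, Siglece a sialic acid receptor of myeloid cells and Nlrp3 an inflammasome sensor. Cd83, the closest, had centred means of 0.4 in tumor Tom+/Pecam1+ cells, 1.7 in Tom+/Pecam1- cells and 3.38 in Tom-/Pecam1- cells, and 0.2 in muscle Tom+ and 0.67 in muscle Tom- cells.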

How the data were processed

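RNA from sorted cells was amplified with a NuGEN Ovation Pico kit, labelled with biotin and hybridised to 18 one-color arrays. The deposited values are on a log2 scale and were made by the authors with RMA and Partek, per the submitters' processing notes, with no version or order given. Of 41345 probe sets, 23521 named 1 gene, 1814 several and 16010 none. Genes with several probe sets were represented by the one with the highest mean. Of 22180 genes, 16011 were tested, since at least 3 arrays had to exceed the 40th percentile of their own values. Differences were fitted with limma 3.58.1 in R 4.3.3 as 1 mean per group over all 18 arrays. This left 13 residual degrees of freedom. The script was tested on simulated data. Within-tissue comparisons used deposited values, and tumor-muscle comparisons used values centred on each array's median.

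The labels call the replicates biological repeats and do not tie them to animals. Same-numbered arrays deviated together only weakly in muscle, with r from 0.12 to 0.19 in 3 pairs, against -0.16 to -0.02 for other numbers. Deviations from a group mean sum to zero within a group, so these values are not independent. Whether repeat numbers pair the arrays there is therefore not settled, and no muscle member passed with the repeat block either. In tumor the check is void (r from -0.67 to -0.28), because the repeat means are equal. The repeat block, other filters, scalings and thresholds, and leaving out arrays were tried as alternatives. Precision is set by the few arrays per group and by a spread pooled over all sorted groups. Tumor arrays therefore also enter the standard errors of the muscle comparison.

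The members and gene lists were chosen with earlier results of these data known. The named list genes are at most 4 per list and comparison, those with the smallest adjusted p past the threshold, or every gene that passed where there were 5 or fewer, and the 8 genes nearest to the members by Pearson correlation. H2-DMb2 and single genes that ran against the rest of their list, such as Nfyc and Fscn1, were named after their values were seen.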

Additional observations from a re-analysis of the deposited data

Results flagged for a closer look

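H2-Eb1 in tumor Tom-/Pecam1- cells had 1 array far below the other 3, repeat 4 at a log2 intensity of 9.43, against 10.6 to 10.81. Its distance to the next array was 0.852 of the group's range. Among 18 member and group pairs of 4 arrays this was the only such array, where chance gives about 1 in 20 for independent pairs. The tumor values of a repeat are coupled, so these pairs are not independent and that rate does not apply as it stands. H2-Eb1 in Tom+/Pecam1+ cells was high in repeat 4, at 7.51 against 5.5 to 5.93, and is not a separate observation. The Tom-/Pecam1- array of repeat 4 was also lowest of its group in the pan-leukocyte markers (8.58 against 9.43 to 9.79) and the dendritic cell markers (6.21 against 7.16 to 7.64). The same held for the T cell markers (5.34 against 6.34 to 7.32) and the B cell markers (4.62 against 5.17 to 6.12). These means are coupled too, and their part in its H2-Eb1 value was not tested.

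The reporter contrast differed between Pecam1-negative tumor cells and muscle by a test of the difference itself in H2-DMa and Ciita. The 3 classical chains did not pass. H2-DMb1 passed too, but it was tested only because it was high in tumor Tom-/Pecam1- cells. The log2 differences of the contrasts were -1.68 for H2-DMa, -1.34 for Ciita and -1.16 for H2-DMb1, and for H2-DMb1 the call was lost with the repeat block. Of all genes 18.5% were called lower and 39.5% in either direction in this test, and none of the 6 members passed without muscle repeats 1 and 2.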

How the results depend on the processing

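Of 779 values of single members under alternatives, 718 kept their direction and side of the threshold, 30 fell short of it, 16 newly passed it and 15 changed sign, each between differences that did not pass the limma test. In muscle, Ciita (-0.08) was 0.05 after quantile normalization, 0.21 without muscle repeats 1 and 2, and -0.19 to 0.04 without 1 array, and without those repeats H2-DMa (-0.15) was 0.09 and H2-DMb1 (0.12) was -0.31. Ciita in tumor Tom+/Pecam1+ against Tom+/Pecam1- cells (0.03) was -0.07 to 0.21 without 1 array. H2-Eb1 in tumor Tom+/Pecam1+ against muscle Tom+ cells (-0.03) was 0.32 on deposited values and -0.48 to 0.19 without 1 array. In muscle, 0 members passed in the fit reported, 1 with a 60th percentile filter, 1 after quantile normalization and 3 in a fit of the muscle groups alone (H2-Aa, H2-Ab1 and H2-Eb1, adjusted p = 0.00745, 0.0117 and 0.0269); leaving out 1 array gave 0 to 1. Between tumor Tom+/Pecam1+ and muscle Tom+ cells the count was 1, and it was 3 on deposited values (H2-DMa and H2-DMb1 then higher), 2 without tumor repeat 4, 0 at an adjusted p under 0.01, and 0 to 2 without 1 array. For the difference of contrasts the count was 3 with H2-DMb1 included. It was 5 with only the groups compared, 5 without tumor repeat 4 and 2 to 4 without 1 array. Where no count over all genes is given below, these counts of members cannot be set beside the share of all genes. Without muscle repeats 1 and 2 the differences were -1.91 for H2-DMa, -1.62 for Ciita and -0.73 for H2-DMb1.

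With the replicate block, the counts for the 2 adjoining tumor comparisons were 5 (Tom+/Pecam1- against Tom-/Pecam1-) and 3 (Tom+/Pecam1+ against Tom+/Pecam1-), and 2 for the difference of contrasts; it changed no other member's call. H2-DMa in Tom+/Pecam1+ against Tom+/Pecam1- cells also lost its call without the filter (adjusted p = 0.0575) and after quantile normalization (0.088). Over all genes, 2693 passed with the block and 2440 at 0.01, against 4065, for Tom+/Pecam1- against Tom-/Pecam1- cells. Without muscle repeats 1 and 2, 3629 passed, against 6352, in muscle, and 3992, against 6319, for the difference of contrasts. Between tumor Tom+/Pecam1+ and muscle Tom+ cells, 5482 passed (2513 higher, 2969 lower), 8444 on deposited values (7642 higher, 802 lower), 3309 at 0.01 and 2769 without muscle repeats 1 and 2. Between tumor Tom-/Pecam1- and muscle Tom- cells, 3805 were higher and 3991 lower on centred values, and 7854 and 1554 on deposited values. The causes were not tested.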
